A study of Mus musculus with 48 samples.

Results

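The type II hair keratins Krt81, Krt82, Krt83, Krt84, Krt85 and Krt86 were followed by gene name through RNA-seq of mouse skin over the hair cycle. A row was found for 5 of the 6 names among the 46983 genes of the skin table and again in the ear table, and Krt85 was not analysed here. Values are FPKM, fragments scaled to transcript length and to library size, so that levels can be set side by side between genes.

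Keratin filaments are built from pairs of a type I (acidic) and a type II (basic) keratin. Hair keratins are the cysteine-rich members of both types, are made by the differentiating cells that leave the hair matrix in anagen, and are cross-linked with keratin-associated proteins into the hard shaft. Krt81, Krt83 and Krt86 are cortex keratins of the shaft, Krt82 is a keratin of the shaft cuticle, and Krt84 is best known from the filiform papillae of the tongue and from the nail. Anagen is the growth phase of the follicle, catagen its regression and telogen its rest.

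The libraries were made from total RNA of whole skin of C57BL/6 mice, with 43 libraries of chin, ventral and dorsal skin at 6 stages (competent telogen, early, mid and late anagen, catagen and refractory telogen), which gave 18 groups of 2 or 3 libraries. Competent telogen is the first rest phase and refractory telogen the early part of the second. A second table held 2 libraries of telogen ear skin, 3 of the ear cartilage/muscle complex and the 2 libraries of dorsal competent telogen again. No group carried a transgene or a treatment, the labels give no age in days, and the sources used here do not state whether replicates were separate mice, so that the p-values measure only the spread between these libraries. Whole skin is a mixture, in which fewer hair shaft cells and less keratin RNA per cell cannot be told apart.

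The 5 genes lie on the keratin cluster of chromosome 15 (GRCm38, GENCODE vM21), each with 9 exons. Krt81 (ENSMUSG00000067615.3) is at chr15:101459061-101463751 on the minus strand and Krt86 (ENSMUSG00000067614.4) at chr15:101473478-101479986 on the plus strand. Krt84 (ENSMUSG00000044294.7) is at chr15:101525026-101532820 and Krt82 (ENSMUSG00000049548.8) at chr15:101541214-101550667, both on the minus strand. The row named Krt83 carries the identifier ENSMUSG00000047641.7, at chr15:101431038-101438804 on the minus strand, a gene that the later annotation calls Krt87. The gene that the later annotation calls Krt83 (ENSMUSG00000067613.5, chr15:101485130-101491512, minus strand) is in the tables as 5430421N21Rik. Below, Krt83 is the gene named so in the tables, and the values of 5430421N21Rik are given beside it. The cortex role given above goes with the name Krt83 and was not established for the gene of this row.

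The coding sequences fell into a close set and a pair of outlying genes. Krt81 and Krt86 were identical at 94.2% of 1441 aligned coding bases, and Krt83 and Krt81 at 91.6% of 1435. Krt84 and Krt82 matched Krt81 at 74.0% and 73.1%, and each other at 71.8%. In the following coding stretch of 90 bases, chosen because the 4 close paralogs carry the same letters throughout, capitals mark the bases that differ from Krt81, which number 24 in Krt84 and 37 in Krt82. A read that lies within this stretch carries no base that tells the 4 close genes apart.
Krt81: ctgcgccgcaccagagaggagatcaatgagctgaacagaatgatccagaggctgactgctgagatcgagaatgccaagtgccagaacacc
Krt86: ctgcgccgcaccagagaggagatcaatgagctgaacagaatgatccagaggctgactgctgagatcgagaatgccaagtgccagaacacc
Krt83: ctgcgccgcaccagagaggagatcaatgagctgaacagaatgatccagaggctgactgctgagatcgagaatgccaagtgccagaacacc
5430421N21Rik: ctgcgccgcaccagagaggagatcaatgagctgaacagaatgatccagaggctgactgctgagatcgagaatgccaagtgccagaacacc
Krt84: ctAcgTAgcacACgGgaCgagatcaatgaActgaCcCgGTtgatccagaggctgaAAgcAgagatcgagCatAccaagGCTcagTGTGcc
Krt82: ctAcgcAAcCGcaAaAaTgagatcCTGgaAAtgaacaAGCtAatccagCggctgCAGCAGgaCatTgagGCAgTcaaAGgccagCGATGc

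In a second stretch of 90 coding bases the 4 close paralogs differ at 24 positions. This is the most among stretches without a gap in any aligned gene that start in the reading frame of Krt81. Parts of the alignment with gaps were not searched. Krt86 differed from Krt81 at 17 of the 90 bases, Krt83 at 12 and 5430421N21Rik at 9, again in capitals.
Krt81: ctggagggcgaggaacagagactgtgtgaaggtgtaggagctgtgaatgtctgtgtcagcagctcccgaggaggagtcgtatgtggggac
Krt86: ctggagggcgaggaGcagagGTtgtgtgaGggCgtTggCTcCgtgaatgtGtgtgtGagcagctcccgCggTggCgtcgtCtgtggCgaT
Krt83: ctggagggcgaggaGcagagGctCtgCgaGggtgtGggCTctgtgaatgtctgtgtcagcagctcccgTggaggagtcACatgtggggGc
5430421N21Rik: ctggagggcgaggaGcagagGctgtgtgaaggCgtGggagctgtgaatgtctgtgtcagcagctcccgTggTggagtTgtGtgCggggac
Krt84: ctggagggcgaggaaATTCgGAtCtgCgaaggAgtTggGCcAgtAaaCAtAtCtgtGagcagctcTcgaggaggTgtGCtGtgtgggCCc
Krt82: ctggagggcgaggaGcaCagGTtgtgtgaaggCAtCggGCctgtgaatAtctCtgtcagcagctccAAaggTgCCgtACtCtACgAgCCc

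Of all windows of 75 bases along the transcripts, 35.5% of those of Krt81 and 33.5% of those of Krt86 occurred letter for letter in another of these genes, against 11.0% for Krt83, 12.5% for 5430421N21Rik and none of the 2496 windows of Krt84 or the 2036 of Krt82. The counting model divides fragments of shared stretches between genes. The levels of Krt81 and Krt86, and with fewer shared windows those of Krt83 and 5430421N21Rik, therefore carry an uncertainty from sharing within this set. Those of Krt84 and Krt82 do not carry that one. Stretches shared with genes outside the set, or alike without being identical, were not searched. The part of shared stretches in the likenesses and differences among these close genes given below was not tested.

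Of the 5 genes, Krt82 and Krt84 had a promoter sequence in the RefSeq table (GRCm38.p6), and the 250 bases before their starts are shown because these neighbouring genes had the least alike patterns of all pairs of members. Both are on the minus strand, Krt82 at chr15:101550660-101550909 and Krt84 at chr15:101532821-101533070. The starts used here are those of RefSeq. That of Krt82 lies a few bases inside the gene as placed above by GENCODE, which starts at 101550667. The promoter of Krt84 ends where its GENCODE gene starts. Capitals mark the motifs searched on both strands, the TATA box core TATAAA, the core of Lef and Tcf factor sites as CTTTGA or as CTTTGT, a further run ATAAAAG and the run CCCAAGCTCATAAA. The last is the longest run the pair share and was chosen, with ATAAAAG, after the sequences were seen.
Krt82: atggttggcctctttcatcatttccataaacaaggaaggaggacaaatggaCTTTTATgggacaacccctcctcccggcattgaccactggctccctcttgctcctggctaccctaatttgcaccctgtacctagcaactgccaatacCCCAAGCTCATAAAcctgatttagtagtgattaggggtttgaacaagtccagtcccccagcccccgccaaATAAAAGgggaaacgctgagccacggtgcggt
Krt84: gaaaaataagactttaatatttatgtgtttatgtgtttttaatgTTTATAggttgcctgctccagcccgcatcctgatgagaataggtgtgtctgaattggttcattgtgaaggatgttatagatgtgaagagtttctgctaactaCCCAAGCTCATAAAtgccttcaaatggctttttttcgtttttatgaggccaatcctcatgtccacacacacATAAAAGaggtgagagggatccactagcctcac

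Counted from the RefSeq starts, CCCAAGCTCATAAA lay 102 to 89 bases before that of Krt82 and 104 to 91 bases before that of Krt84. From the GENCODE start of Krt82 the distances would be a few bases shorter. The run was found in 2 of the 32851 promoters of the table (0.00609%), which are these. ATAAAAG lay 32 to 26 and 33 to 27 bases before the starts, with a further copy on the other strand of Krt82, and occurred in 4.83% of promoters. TATAAA was met once, on the other strand of Krt84 (12.4% of promoters), and neither promoter held CTTTGA (13.8%) or CTTTGT (16.5%). None of these motifs overlapped another.

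The sequencing depth, estimated from the size of the steps that single fragments leave in low FPKM values, was 6649970 to 25194162 fragments in the skin libraries, 15777933 and 28520191 in ear skin and 6866210 to 11829688 in the cartilage/muscle complex. Before any comparison, 1 pair of groups has to be named. The 2 libraries labelled dorsal competent telogen and the 2 labelled chin late anagen, which differ in both domain and stage, differed for 1 gene upwards (0.00470% of the 21257 tested) and 1 downwards (0.00470%). Their summed skeletal muscle markers were 4729 to 4781 and 4599 to 4795 FPKM and their macrophage markers 279.7 to 285 and 279 to 285. The counts over stages and over domains are therefore also given without them, and groups are called by their labels throughout. The summed cell cycle markers were 302 to 328 FPKM in chin and 331 to 391 in ventral competent telogen, and 30.1 to 41.7 in ventral early anagen, so that these markers did not follow the order of labelled rest and growth stages. The summed markers of interfollicular epidermis lay between 2652 and 16336 FPKM over the skin groups and at 19806 to 21213 in ear skin, and those of cartilage at 1391 to 1770.1 in the cartilage/muscle complex against 1.66 to 1.97 in ear skin.

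Krt81, a cortex keratin, was the most abundant member in 14 of the 18 groups. In chin skin it was at 179 and 166 FPKM in competent telogen, 368 and 389 in early anagen, 3070.5 and 2136 in mid anagen, 1789.9 and 1591 in late anagen, 1312, 1305 and 1398 in catagen and 503, 786 and 472 in refractory telogen. In ventral skin the libraries of the same stages gave 210.5, 201 and 149, then 386, 399.6 and 422, then 1475 and 1633, then 1781, 1771 and 1838, then 2154 and 1798, and 1469.6 and 1946. In both domains competent telogen and early anagen lay below every library of the later stages. Dorsal skin gave 1622 and 1602 in competent telogen, 48.8 and 39.9 in early anagen, 1469, 1448 and 1091 in mid anagen, 1800.1, 1629.6 and 1622 in late anagen, 1196 and 1117 in catagen and 1511 and 1399 in refractory telogen. Here only early anagen was low, and the libraries labelled competent telogen stood with the high groups. From the lowest group mean (44.3 ± 6.27 (SD, n = 2), dorsal early anagen) to the highest (2603 ± 661 (SD, n = 2), chin mid anagen) the span was 58.7-fold. In the order of the 18 means, 11 of the 17 neighbouring pairs had overlapping libraries, so that most of the high groups could not be ranked.

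**Figure D1:**
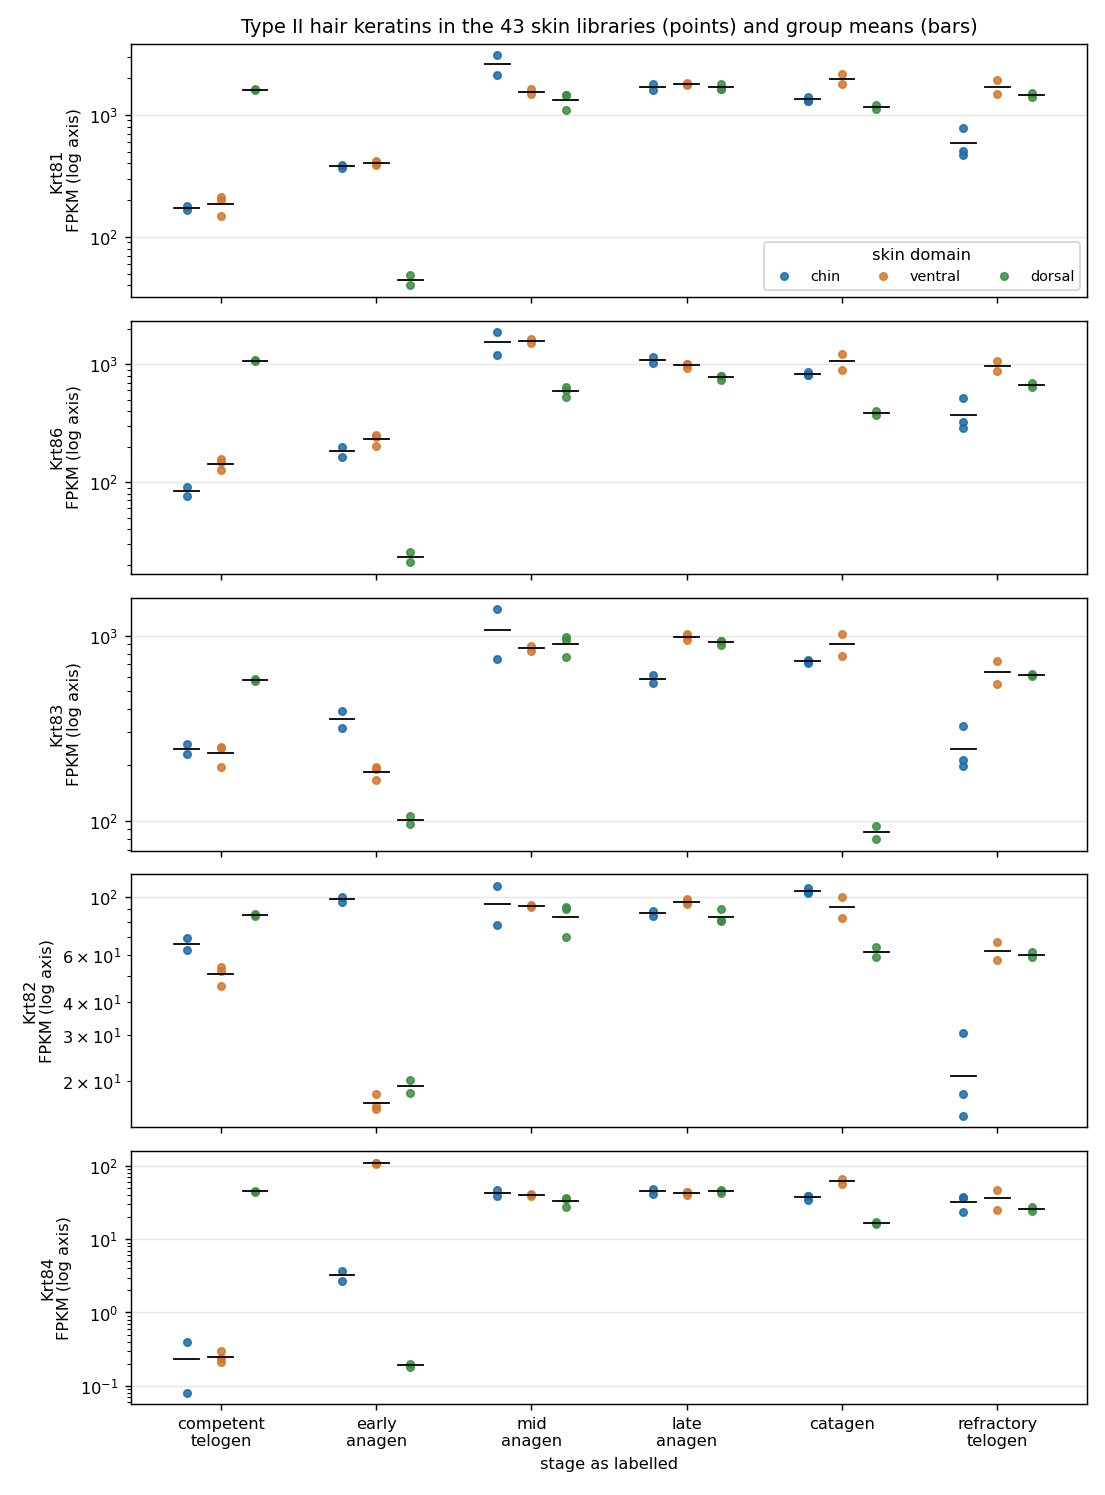
FPKM of the 5 type II hair keratins (1 panel each, log axis) in the 43 skin libraries, by stage as labelled and by domain; points are libraries and bars are group means. Krt84 spans from 0.08 FPKM in chin competent telogen to 110.5 in ventral early anagen, whereas Krt82 stays between 14.8 and 109.6.

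Krt86, the cortex keratin closest to Krt81 in sequence, followed it (Pearson r = 0.98 over the 18 group means of log2(FPKM + 1), a description of groups from shared tissue). Chin libraries were at 90.5 and 76.9 FPKM in competent telogen, 164 and 200.1 in early anagen, 1871 and 1204 in mid anagen, 1166 and 1017 in late anagen, 859.6, 815 and 818 in catagen and 325, 515 and 286 in refractory telogen. Ventral libraries rose from 147, 156 and 127 over 202, 242 and 249 to 1639 and 1523 in mid anagen, and were at 935, 998 and 1005 in late anagen, 1224 and 898 in catagen and 871 and 1078 in refractory telogen. Ventral mid anagen was the one group in which Krt86 was as abundant as Krt81, with 1581 ± 82.5 (SD, n = 2) against 1554 ± 112 (SD, n = 2) FPKM. Dorsal skin had 1079 and 1063 in competent telogen, 25.6 and 20.9 in early anagen, 603, 641 and 527 in mid anagen, 800.5, 734 and 791 in late anagen, 398 and 369 in catagen and 697 and 641 in refractory telogen. Unlike for Krt81, 11 of the 17 neighbours in the order of group means did not overlap, and dorsal mid anagen, late anagen and catagen lay below every chin and ventral library of their stages.

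Krt83, another gene of the close set, spanned 12.3-fold between its lowest and highest group means. Chin skin gave 260 and 229 FPKM in competent telogen, 319 and 389.8 in early anagen, 1389 and 748 in mid anagen, 611 and 558 in late anagen, 739, 712 and 730 in catagen and 213, 326 and 198 in refractory telogen. The corresponding ventral values were 246, 252 and 196, then 167, 190.1 and 194, then 827 and 878, then 947, 993 and 1015, then 1018 and 772, and 729.9 and 547. Ventral early anagen and competent telogen lay close together for this gene, at 194 FPKM in the highest and 196 in the lowest library, and the difference of -0.32 on the log2 scale was not called (adjusted p = 0.134). In dorsal skin Krt83 was at 586 and 569.9 in competent telogen, 107 and 96.6 in early anagen, 942, 982 and 763 in mid anagen, 936, 885 and 939 in late anagen, 79.7 and 94.4 in catagen and 623 and 602 in refractory telogen. Dorsal catagen, with 87 ± 10.4 (SD, n = 2) FPKM, was its lowest group of all 18, although Krt81 was at 1157 in the same libraries. The gene now called Krt83, 5430421N21Rik, was at 2279 and 2199 FPKM there, just above the 2154 to 2195 of dorsal refractory telogen, where Krt83 was at 613. It followed Krt81 (r = 0.99, against 0.78 with Krt83), from 84.3 in dorsal early anagen to 4223 FPKM in chin mid anagen, and its group mean was above that of Krt81 in all 18 groups.

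Krt82, the cuticle keratin, had the narrowest range of the 5, with a 6.32-fold span between its highest and lowest group means. It was at 69.7 and 62.7 FPKM in chin competent telogen, 95.3 and 99.8 in early anagen, 109.6 and 77.9 in mid anagen, 88.5 and 84.2 in late anagen, 107, 104 and 103 in catagen and 17.9, 30.4 and 14.8 in refractory telogen. In the chin its early anagen libraries thus lay within the range of mid anagen, when Krt81 was at 378 of the 2603 FPKM of mid anagen. Ventral skin gave 52.1, 54.1 and 45.9 in competent telogen, 15.7, 16.1 and 17.9 in early anagen, 92.7 and 91.7 in mid anagen, 94, 95.3 and 97.8 in late anagen, 99.7 and 82.8 in catagen and 67.5 and 57.2 in refractory telogen. The 3 libraries of ventral early anagen were its lowest group. Dorsal libraries were at 86.1 and 84.7, then 18.1 and 20.2, then 91.6, 90 and 70, then 89.3, 81 and 81.1, then 64.2 and 59.1, and 61.8 and 58.8 in the same order of stages. The order of means was not resolved at the top, since 12 of 17 neighbours overlapped and the groups at the second to the ninth place each overlapped the next.

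Krt84, the keratin known from tongue and nail, spanned 575-fold between its lowest and highest group means. It was at 0.39 and 0.08 FPKM in chin competent telogen, 0.3, 0.21 and 0.24 in ventral competent telogen and 0.2 and 0.18 in dorsal early anagen. These values rest on about 12, 22 and 9 fragments in all, so that the gene was close to its detection limit in these groups. The highest values of any group were 108, 109 and 110.5 FPKM in ventral early anagen, 422-fold the level of ventral competent telogen (95% exact Poisson interval 279 to 673, for counting error of the low group only). Chin early anagen was between these extremes, at 3.73 and 2.73. The remaining chin groups gave 46.3 and 38.6 in mid anagen, 48.3 and 42.1 in late anagen, 34.5, 39.5 and 38.4 in catagen and 37.4, 23.7 and 36.4 in refractory telogen. The ventral ones gave 38.9 and 41.5 in mid anagen, 44.5, 43.9 and 40.5 in late anagen, 67 and 56.1 in catagen and 47.1 and 25.1 in refractory telogen, so that ventral refractory telogen was split between its 2 libraries. Dorsal skin had 45.8 and 44.3 in competent telogen, 35.1, 36.9 and 27.4 in mid anagen, 47.7, 45.1 and 43.5 in late anagen, 15.9 and 17.4 in catagen and 27.6 and 24.6 in refractory telogen. Chin refractory telogen kept 32.5 FPKM of Krt84, with libraries that overlapped those of dorsal mid anagen, while Krt82 there was at 21. In the order of means 12 of 17 neighbours overlapped, and the groups at the third to the twelfth place each overlapped the next.

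**Figure D2:**
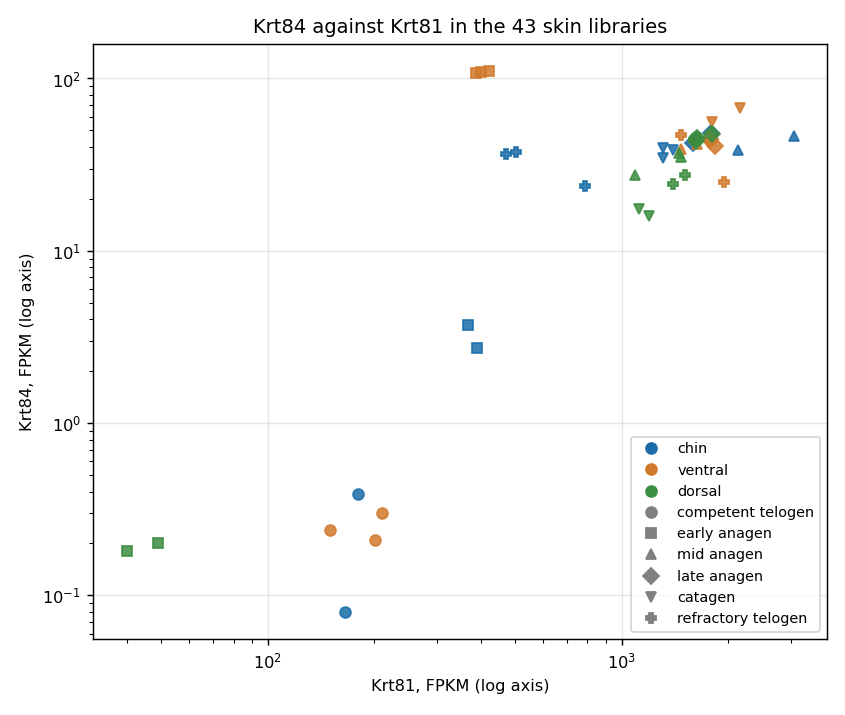
Krt84 against Krt81, both in FPKM on log axes, in the 43 skin libraries, with colour for the domain and symbol for the stage. The 3 ventral early anagen libraries (squares) reach 108 to 110.5 FPKM of Krt84 at 386 to 422 of Krt81, a level of Krt81 at which the 2 chin early anagen libraries hold 2.73 and 3.73 of Krt84.

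The shares of the 5 genes in their summed FPKM differed between low and high groups. The sum leaves out Krt85 and 5430421N21Rik. In dorsal catagen 5430421N21Rik alone averaged 2239 FPKM, against 1705 for the 5 genes together. The shares are therefore not those of all type II hair keratin RNA. The 5 genes summed to 178 to 199 FPKM in dorsal early anagen, 534 to 599.8 in chin competent telogen and 518 to 663 in ventral competent telogen, against 3374 to 3674 in dorsal late anagen and 4205 to 6486 in chin mid anagen. In the 3 low groups Krt83 was the largest part, with 53.9% ± 0.61 (SD, n = 2) of the sum in dorsal early anagen, 43.1% ± 0.34 (n = 2) in chin and 37.7% ± 0.235 (n = 3) in ventral competent telogen. Krt82 made up 11.7% ± 0.0804 (n = 2) in chin competent telogen and 10.2% ± 1.6 (n = 2) in dorsal early anagen, but 2.39% ± 0.0496 (n = 3) in dorsal late anagen. Dorsal catagen departed the other way, with 67.8% ± 0.55 (n = 2) from Krt81 and 5.12% ± 0.817 from Krt83. Krt84 averaged under 3% of the sum in 17 groups and made up 11.6% ± 0.62 (n = 3) in ventral early anagen. Single libraries of chin refractory telogen ran from 1.41% to 3.61%, with a mean of 2.81%. Across the 18 group means the pairwise r between members ran from 0.20 for Krt82 and Krt84 to 0.98 for Krt81 and Krt86.

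**Figure D3:**
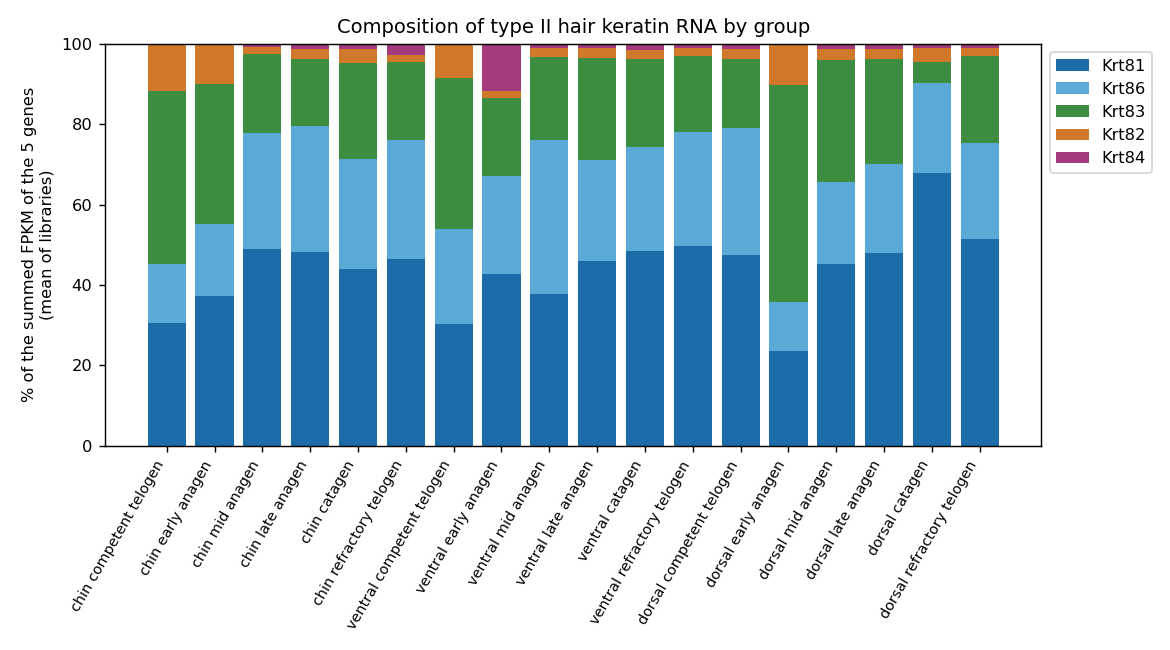
Share of each gene in the summed FPKM of the 5 type II hair keratins (vertical axis, percent, mean of the libraries of a group) in the 18 domain-stage groups. Krt85 and 5430421N21Rik are not part of the sum. Krt83 is the widest band in chin competent telogen, ventral competent telogen and dorsal early anagen, and Krt84 is visible as a broad band in ventral early anagen, where it reaches 11.6%.

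All 5 members changed over the 6 stages in each domain by the moderated F-test of limma, with adjusted p between 1.28e-19 and 1.52e-10 in the chin. Most genes did so as well, 66.2% of the 21257 tested in chin, 70.2% in ventral and 68.5% in dorsal skin. Between consecutive stages, 53 of the 90 contrasts of a member passed an adjusted p of 0.05, against 28.8% of the contrasts over all genes. These include, in each domain, competent over refractory telogen, which are the first and the last stage sampled and not neighbours in time. For that step 1 member was called higher and 3 lower in chin, 4 lower in ventral and 2 higher in dorsal skin, with the shares of all genes given below. With chin late anagen and dorsal competent telogen left out, a setting chosen after the data were seen, all 5 still changed with stage in both domains. In that setting 43 of 70 contrasts passed, against 44 of the same 70 with all groups fitted. No share over all genes was worked out for it.

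In chin skin, Krt81, Krt84 and Krt86 rose from competent telogen to early anagen (3 of 5, where 1.26% of all genes rose). On the log2(FPKM + 1) scale, which understates the change of low genes, Krt84 rose by 1.78 (SE 0.20, adjusted p = 6.62e-07) and Krt81 by 1.13 (SE 0.19). Krt82 differed by 0.55 (adjusted p = 0.136) and Krt83 by 0.53 (0.235) and were not called. In a fit of the chin libraries alone the rises of Krt81 and Krt86 were lost (adjusted p = 0.0639 and 0.122). From early to mid anagen 4 members rose (3.66% of all genes), Krt84 by 3.36, Krt86 by 3.04, Krt81 by 2.76 and Krt83 by 1.53, while the difference of Krt82 was -0.08 (SE 0.18, adjusted p = 0.844). The median of the 5 was 2.76 against -0.16 over all genes. Krt81 and Krt83 fell into late anagen by 0.60 and 0.80 (12.3% of all genes fell), but both calls were lost without chin mid anagen replicate 1, at adjusted p = 0.341 and 0.296, and without chin late anagen replicate 2, at 0.173 and 0.0658, and that of Krt81 also without chin late anagen replicate 1 (0.0533). In the fit of the chin libraries alone both falls were also lost (adjusted p = 0.0996 and 0.0771). No member was called between late anagen and catagen.

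From catagen to refractory telogen 4 members fell in the chin (17.5% of all genes fell). The cuticle keratin Krt82 fell most, by 2.33 (SE 0.15, adjusted p = 4.8e-13, 4.99-fold in mean FPKM), followed by Krt83 with 1.60, Krt81 with 1.23 and Krt86 with 1.19. The difference of Krt84 was -0.23 (SE 0.16, adjusted p = 0.262) with overlapping libraries. All 9 type I hair keratins and all 7 hair shaft regulators fell with them, with medians of -1.92 and -2.05 against -1.23 for the 5 members and 0.09 over all genes. Summed cell cycle markers were 239.6 to 243 FPKM in catagen and 42.7 to 60.7 in refractory telogen, and summed skeletal muscle markers 2760.3 to 2878 and 10894 to 16464, and their part in the result was not tested. Between refractory and competent telogen the members split, since Krt84 was lower by 4.74, Krt86 by 2.11 and Krt81 by 1.72 in competent telogen (17.8% of all genes were lower), whereas Krt82 was higher by 1.67 (SE 0.17, adjusted p = 3.85e-09, 18.4% of all genes were higher) and Krt83 differed by 0.03.

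In ventral skin the first step separated the members. From competent telogen to early anagen Krt84 rose by 6.46 (SE 0.16, adjusted p = 1.04e-22), Krt81 by 1.12 and Krt86 by 0.68 (13.2% of all genes rose), and Krt82 fell by 1.56 (SE 0.15, adjusted p = 1.95e-09, 29.3% of all genes fell). Into mid anagen the moves of Krt84 and Krt82 turned around. Krt84 fell by 1.42 (25.6% of all genes fell), and Krt86, Krt82, Krt83 and Krt81 rose by 2.78, 2.41, 2.21 and 1.94 (16.8% of all genes rose). Later steps gave few calls. Krt86 fell by 0.69 into late anagen (11.6% of all genes fell), a call lost without ventral mid anagen replicate 1 (adjusted p = 0.0601), and no member was called between late anagen and catagen. Krt82 and Krt84 fell into refractory telogen by 0.54 and 0.81 (18.8% of all genes fell). The fall of Krt84 was lost without ventral refractory telogen replicate 2 (adjusted p = 0.157) and that of Krt82 without the same library (0.168) or without ventral catagen replicate 1 (0.205). Against refractory telogen, competent telogen was lower for Krt84, Krt81, Krt86 and Krt83, by 4.83, 3.19, 2.75 and 1.45 (8.12% of all genes were lower).

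Among the type I hair keratins, the partners in the filament, Krt36 was high in the same ventral early anagen libraries as Krt84. It was at 148 ± 3.31 FPKM (SD, n = 3) there, against 17.7 ± 2.43 in ventral competent telogen (n = 3) and 28.6 ± 2.37 in mid anagen (n = 2), and rose by 3.00 (adjusted p = 5.31e-18). Of the 9 type I hair keratins, 4 rose in that step and 3 fell, the largest fall being that of Krt35, a type I keratin of early shaft differentiation, by 2.88. All 7 hair shaft regulators fell, among them Msx1 by 3.93, Lef1, which mediates Wnt signals in the matrix, by 2.86 and Hoxc13, a homeobox regulator of hair keratin genes, by 1.02. The median was -1.87 for the regulators, 0.19 for the type I and 0.68 for the type II hair keratins, against -0.10 over all genes. Other lists moved with it. The summed markers of interfollicular epidermis were 15712 to 16336 FPKM in ventral early anagen and 7177 to 8049 in competent telogen, and Krt6a and Krt16, keratins of stressed and companion layer epithelium, were at 796 ± 23.8 and 503 ± 12.1 FPKM against 116 ± 12.7 and 6.22 ± 3.35 (SD, n = 3 each), while the cell cycle list fell in all 8 genes. Their part in the level of Krt84 was not tested.

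In dorsal skin all 5 members were lower in early anagen than in the libraries labelled competent telogen (8.24% of all genes), by 5.47 for Krt86, 5.27 for Krt84, 5.16 for Krt81, 2.50 for Krt83 and 2.10 for Krt82. This contrast rests on the group that differed from chin late anagen in 2 genes. All 5 also rose from early to mid anagen (9.09% of all genes), Krt81 by 4.88 (SE 0.17, adjusted p = 5.08e-19, 30.1-fold in mean FPKM), Krt84 by 4.83, Krt86 by 4.61, Krt83 by 3.12 and Krt82 by 2.07. The median of 4.61 compares with -0.18 over all genes and 2.50 over the type I hair keratins, of which 9 of 9 rose, and the cell cycle list fell in 8 of 8. No member was called between mid and late anagen.

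From late anagen to catagen all 5 members fell in dorsal skin (18.7% of all genes fell), by unequal amounts. Krt83 fell by 3.39 (SE 0.19, adjusted p = 4.37e-14, 10.6-fold in mean FPKM), Krt84 by 1.39, Krt86 by 1.01, Krt81 by 0.54 and Krt82 by 0.44. Without dorsal catagen replicate 2 the call of Krt81 was lost, at adjusted p = 0.101, and that of Krt82 was lost without any 1 of the 5 libraries of these groups, at adjusted p from 0.0589 (dorsal late anagen replicate 2) to 0.211 (dorsal catagen replicate 2). Type I hair keratins moved in both directions in this step, since 6 fell, Krt34, a cortex keratin, rose by 1.09, and 2 were not called. Hoxc13 rose by 1.37, from 74 ± 1.48 (n = 3) to 193 ± 21.1 FPKM (n = 2), and Foxn1, a transcription factor needed for shaft differentiation, fell by 1.46. Into refractory telogen Krt83 rose by 2.81 (SE 0.21, adjusted p = 9.6e-12), Krt86 by 0.80 and Krt84 by 0.61 (19.1% of all genes rose), the last lost without dorsal refractory telogen replicate 1 (adjusted p = 0.0928) or dorsal catagen replicate 1 (0.08). The libraries labelled competent telogen were above refractory telogen for Krt84, by 0.77, and Krt86, by 0.68 (11.3% of all genes were higher). The call of Krt84 was lost without dorsal refractory telogen replicate 2 (adjusted p = 0.0564), and that of Krt86 without that library (0.0958), without dorsal competent telogen replicate 1 (0.0702) or replicate 2 (0.0621), and under quantile normalization (0.136).

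**Figure D4:**
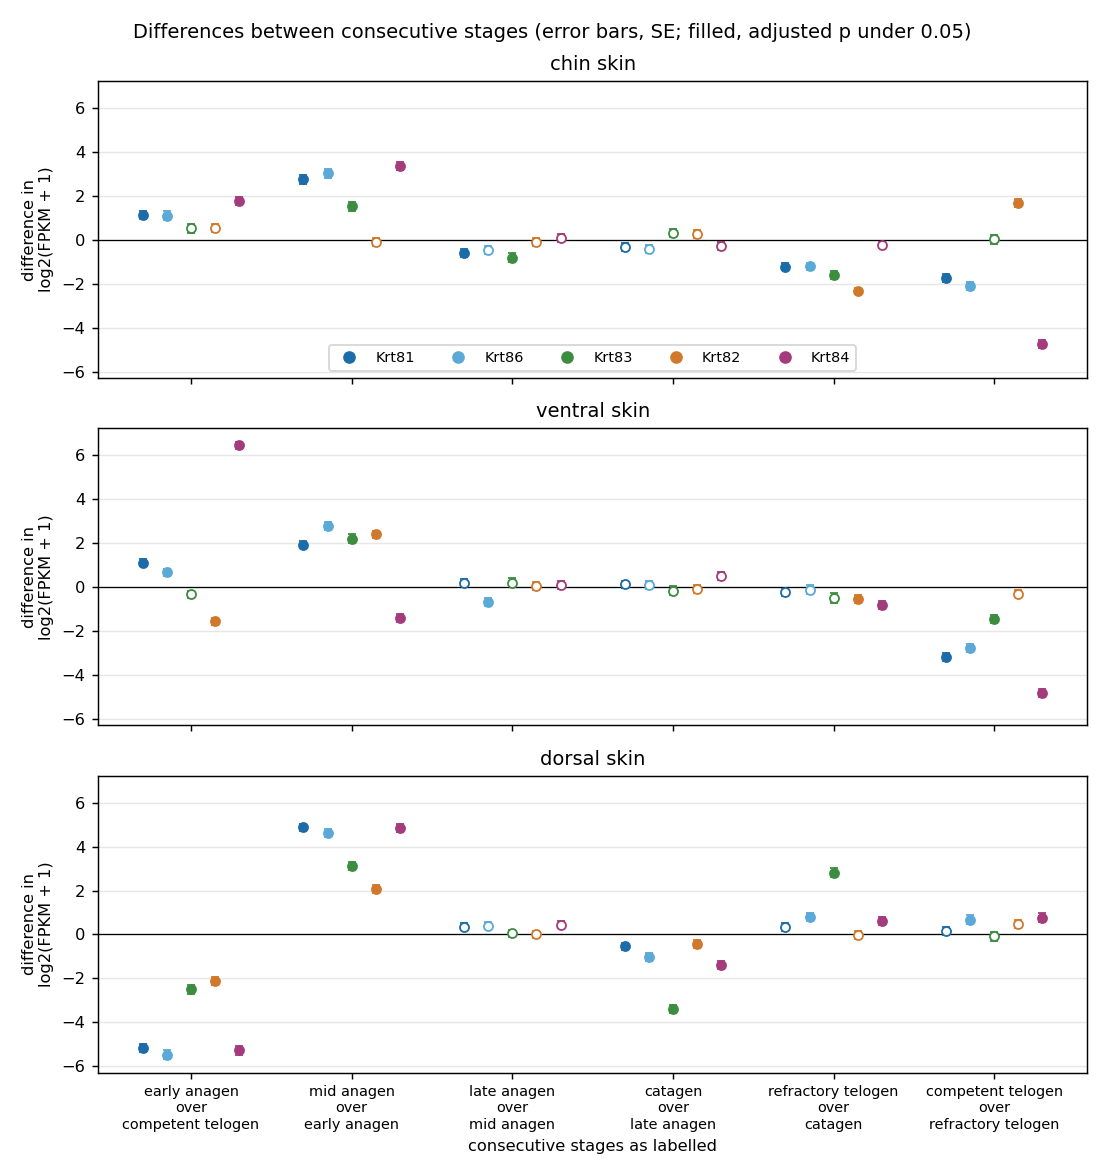
Difference in log2(FPKM + 1) between consecutive stages as labelled (vertical axis) for the 5 genes in chin, ventral and dorsal skin; points are fitted differences, bars their SE, and filled points passed an adjusted p of 0.05. The step of competent over refractory telogen sets the first stage sampled against the last, which are not neighbours in time. Krt84 in ventral early anagen over competent telogen stands at 6.46, opposite to Krt82 at -1.56, and Krt83 in dorsal catagen over late anagen at -3.39.

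The domains were then compared stage by stage. The effect of stage differed between domains for all 5 members (interaction F-test, 73.3% of all genes), and 46 of 90 contrasts of a member between a pair of domains passed (26.4% over all genes and contrasts). With both groups left out, 35 of 70 domain contrasts passed, the same number as for these contrasts with all groups fitted. With the stages competent telogen and late anagen left out in the 3 domains, the interaction held for all 5. No share over all genes was worked out for these settings. Among the remaining 4 stages 16 of 20 tests of a member among the domains passed, with or without those groups in the fit, against 22 over the 6 stages. With all groups fitted, the share of all genes passing in a single stage ran from 38.1% to 51.6% in the 4 stages. In the 6 stages it ran from 20.8% to 54.0%. In late anagen the F-test among the domains called the members about as often as all genes, 1 of 5 against 20.8%. The call was that of Krt83 (adjusted p = 0.0103). It was higher by 0.75 in ventral (9.62% of all genes) and by 0.66 in dorsal skin (13.7%) than in the chin libraries. Without chin late anagen replicate 2 neither was called, at adjusted p = 0.0938 and 0.133, and without chin late anagen replicate 1 the dorsal difference was not (0.058). Krt86 was lower by 0.49 in dorsal than in chin late anagen and not called. It was called in a limma fit of that stage alone (adjusted p = 0.00149), with median-of-ratios scaling (0.0176) and with a minimum of 5 FPKM (0.038). The fit of that stage alone also called Krt86 lower in dorsal than in ventral skin, by 0.34 (adjusted p = 0.015). A difference of Krt86 in late anagen therefore depended on the setting. In mid anagen Krt81 and Krt86 differed (38.1% of all genes). Krt86 was 2.6-fold lower in dorsal than in chin skin, by 1.35, and Krt81 was lower by 0.95 (7.18% of all genes were lower), the latter lost in a fit of the mid anagen libraries alone (adjusted p = 0.0515). Krt86 was also lower in dorsal than in ventral skin, by 1.42 (12.1%), and Krt81 lower in ventral than in chin skin by 0.72 (11.8%), which was lost without chin mid anagen replicate 1 (adjusted p = 0.123) or ventral mid anagen replicate 1 (0.0588).

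In early anagen all 5 members differed among the domains (51.6% of all genes). Dorsal skin was below the chin for all 5 (10.3% of all genes), by 3.07 for Krt81 and 2.92 for Krt86, and below ventral skin for all but Krt82 (14.0%). Krt84 was lower by 6.53 in dorsal than in ventral skin (SE 0.18, adjusted p = 8.49e-22). Ventral skin exceeded the chin in Krt84 by 4.71 (13.0% of all genes were higher), but was below it in Krt82 by 2.49 and in Krt83 by 0.94 (19.8% were lower), while Krt81 differed by 0.09 (adjusted p = 0.763). In this stage the summed cell cycle markers were 275 to 356 FPKM in chin, 30.1 to 41.7 in ventral and 456 to 461 in dorsal skin, an order that was not the order of the keratins, and its part in the differences was not tested.

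In catagen all 5 members differed among the domains (42.9% of all genes). Dorsal skin was lowest, with 4 members below the chin (20.0% of all genes) and 5 below ventral skin (16.4%), and Krt83 carried the largest differences, of -3.05 and -3.34. Krt84 was higher in ventral than in chin skin by 0.70 (2.23% of all genes), lost without ventral catagen replicate 1 (adjusted p = 0.223) or chin catagen replicate 1 (0.0667). The difference of Krt82 between dorsal and ventral skin, -0.55, was lost without ventral catagen replicate 1 (0.186) or dorsal catagen replicate 2 (0.116). One of the labels of the library labelled ventral catagen replicate 1 names an ear location, against its title. In refractory telogen 4 members differed (42.2% of all genes) and the chin was low. Ventral skin was above it by 1.59 for Krt82, 1.56 for Krt81, 1.41 for Krt86 and 1.40 for Krt83 (6.06% of all genes), and dorsal skin by 1.54 for Krt82 down to 0.88 for Krt86 (7.61%), of which the difference of Krt86 was lost in a fit of the refractory telogen libraries alone (adjusted p = 0.0509). For Krt84 the F-test gave an adjusted p of 0.228. The chin libraries of this stage also held 10894 to 16464 FPKM of summed skeletal muscle markers, against 806 to 911 in ventral and 3220.2 to 3349.6 in dorsal skin, and the part of this in the difference was not tested.

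In competent telogen all 5 differed among domains (54.0% of all genes), mostly through the dorsal libraries. They were above the chin for 4 members (9.29% of all genes) and above ventral skin for all 5 (9.89%), by up to 5.23 for Krt84. Their levels were those of chin late anagen, with 1612 ± 14 (SD, n = 2) against 1690.3 ± 141 (SD, n = 2) FPKM for Krt81 and 45 ± 1.01 (SD, n = 2) against 45.2 ± 4.4 (SD, n = 2) for Krt84, and the libraries of the 2 groups overlapped for all 5 members. Without the dorsal libraries 1 difference was called at this stage, Krt86 being higher by 0.77 in ventral than in chin skin (15.5% of all genes). That call was lost without chin competent telogen replicate 2, where the difference was 0.65. Krt82 was lower by 0.38 in ventral than in chin skin and not called. It was called in a limma fit of that stage alone (adjusted p = 0.0344) and with median-of-ratios (0.0315) or quantile scaling (0.0124).

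The genes whose group means were most like those of each member, among 16752 genes with a mean of at least 0.5 FPKM and over the 18 groups, differed from member to member. The other members were left out of this ranking. Krt81 was closest to Krt33b (r = 0.99), a type I cortex keratin, to its paralog 5430421N21Rik (0.99) and to Krtap9-3 (0.98), a keratin-associated protein. Krt86 was closest to Krtap9-3 (0.98), the predicted gene Gm10013 (0.98) and Dusp14 (0.97), a dual-specificity phosphatase. For Krt82 the list held Vsig8 (0.94), an immunoglobulin-domain gene, Krt32 (0.94), a type I keratin of the cuticle, and Bambi (0.92), a pseudoreceptor of the BMP and TGF-beta family. Krt83 was closest to Hsd17b14 (0.97), a steroid dehydrogenase, Dedd2 (0.94) and the connexin Gja3 (0.93). Krt84 was closest to Atp12a (0.96), a proton and potassium pump, Car6 (0.96), a secreted carbonic anhydrase, and Phactr1 (0.95), a regulator of actin and phosphatase 1. None of these r values was tested, as the groups share tissue make-up.

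Ear skin held little of any member. Its 2 libraries were at 6.65 and 5.91 FPKM for Krt81, 4.91 and 4.07 for Krt86, 4.52 and 3.75 for Krt83, 0.36 and 0.48 for Krt82 and 0.75 and 0.74 for Krt84. Against the dorsal libraries labelled competent telogen all 5 were lower (14.6% of the 19299 genes tested in the ear table), by 7.79 (SE 0.07, adjusted p = 1.94e-08, 257-fold) for Krt81, 239-fold for Krt86, 203-fold for Krt82, 139.7-fold for Krt83 and 60.4-fold for Krt84. Krt82, below 0.5 FPKM in both ear skin libraries, entered this test only through the dorsal libraries. The median of the 5 was -6.82, that of the 9 type I hair keratins -7.39, and that of all genes 0.33. As that dorsal group stood with the high groups, the ear values are also set beside the other skin libraries, without a test across the tables. No share over all genes was worked out for this. All 43 skin libraries were above both ear libraries for Krt81, Krt82, Krt83 and Krt86, the lowest of them, in the same order, at 39.9, 14.8, 79.7 and 20.9 FPKM. The lowest skin group was 5.17-fold the ear skin mean for Krt86, 7.06-fold for Krt81, 21.1-fold for Krt83 and 39.4-fold for Krt82. Krt84 was different, for 36 of 43 skin libraries were above the ear and the 7 of chin and ventral competent telogen and dorsal early anagen were below it.

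The ear cartilage/muscle complex was listed at 0 for Krt81, Krt82, Krt83 and Krt86 in all 3 libraries, and at 0.03, 0 and 0.08 FPKM for Krt84, about 3 fragments in all. Genes in general use were measured there, with Actb at 3030.4 ± 137 and Gapdh at 1199 ± 57.1 FPKM (SD, n = 3), and the cartilage genes Col2a1 and Acan were at 70.6 ± 5.7 and 194 ± 18.4. With 3 fragments per library as the floor, for counting error only, dorsal skin was at least 5992-fold higher for Krt81, 4275-fold for Krt86, 2723-fold for Krt83 and 369.6-fold for Krt82. For Krt84 the ratio was 1030.2 with a counting interval of 353 to 4996. All 5 were called lower than in dorsal skin (28.3% of all genes). Ear skin was at least 23.3-fold above the complex for Krt81, 19.5-fold for Krt83, 17.9-fold for Krt86 and 1.82-fold for Krt82. All 5 were again called (38.5% of all genes were lower in the complex), with the largest adjusted p, 0.0016, for Krt82. Krt82 stayed below 0.5 FPKM in every library of ear skin and of the complex. It passed the filter only through the dorsal libraries, so its calls in the ear comparisons are not counted as support.

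**Figure D5:**
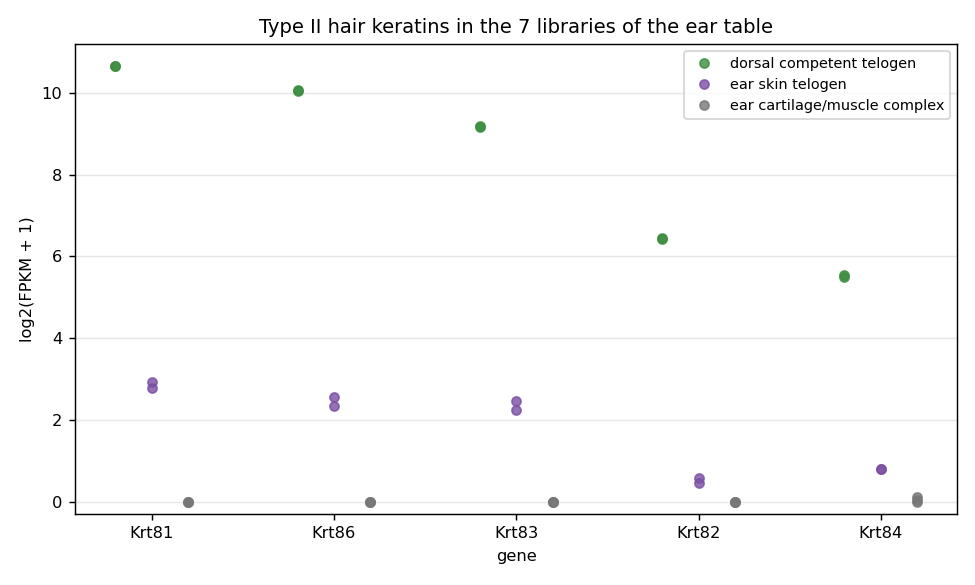
log2(FPKM + 1) of the 5 genes (vertical axis) in the 7 libraries of the ear table; points are libraries of dorsal competent telogen skin (n = 2), telogen ear skin (n = 2) and the ear cartilage/muscle complex (n = 3). The dorsal libraries lie highest, the ear skin libraries far below them, and the cartilage/muscle libraries at or next to 0.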

How the data were processed

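The authors deposited 2 tables of FPKM (fragments scaled to transcript length and library size), made from SMART-seq2 and Nextera paired-end libraries with RSEM 1.2.25 on mm10 and GENCODE vM8, and described as corrected for batch effects, with no details given in the sources used here. A correction of this kind can move low values and shrink differences between replicates. The 2 dorsal competent telogen columns were the same in both tables, so that 48 distinct libraries were analysed. Replicate numbers came from the sample titles.

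Members were matched by gene name, and all values were tested with limma 3.58.1 (R 4.3.3) on log2(FPKM + 1) over the genes that reached 0.5 FPKM in 2 or more libraries (21257 in the skin table, 19299 in the ear table), with a variance trend and Benjamini-Hochberg adjustment over all genes tested. The 43 skin libraries were fitted as 18 groups and the 7 of the ear table apart, since levels of separate tables are only set side by side. All 5 members passed the filter in both tables, Krt82 in the ear table only through the 2 dorsal libraries. Where a setting leaves a group with 1 library, that library is assumed to vary like the others. The tests were checked on simulated data. Genes named were the members, genes of the lists of hair and cell type markers, and the 3 genes most correlated with each member, other members left out. Krt6a, Krt16, Actb and Gapdh, from the lists or in general use, were named after their values were seen. The members and lists were chosen with earlier results of these data known. Coding sequences came from GENCODE vM21 (GRCm38), aligned with mafft 7.526, and promoters from RefSeq GRCm38.p6, which held 2 of the 5 members.

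Depth was estimated from FPKM steps of genes with 1 transcript, and intervals and floors (3 fragments a library) cover counting error only. Alternatives were a pseudocount of 0.1, no filter, a minimum of 5 FPKM, TPM, median-of-ratios and quantile scaling, no trend, a replicate block, fits of 1 domain or stage, leaving out each library, and, added after seeing the data, leaving out chin late anagen and dorsal competent telogen.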

Additional observations from a re-analysis of the deposited data

Results flagged for a closer look

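The effect of stage differed between chin, ventral and dorsal skin for each of the 5 members by the interaction F-test of limma, and this difference between domains is what brought them here. The adjusted p was 2.44e-21 for Krt84, 3.66e-16 for Krt81, 6.14e-16 for Krt86, 1.43e-13 for Krt83 and 2.48e-12 for Krt82, and 73.3% of all genes tested passed the same test. The interaction includes the libraries labelled dorsal competent telogen and chin late anagen. With competent telogen and late anagen left out in the 3 domains it passed for all 5 members, a setting without a share over all genes.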

How the results depend on the processing

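The 10 counts that answer a comparison stayed within 1.5 times their value under every alternative run, and no called difference of a member changed direction. Of 9569 refitted values of single differences 47 lost a call and 71 gained one, and 79 had the other sign, all of differences that were not called and at most 0.39 in size. Members changed with stage stayed at 5 in each domain, as did the interaction. With all groups kept, the other counts ranged from 51 to 58 calls between consecutive stages, 44 to 52 between pairs of domains, 21 to 24 among the 3 domains summed over stages, and 4 to 5 in each ear comparison, where leaving out either dorsal library took Krt82 below the filter. Leaving out chin late anagen and dorsal competent telogen gave 43 and 35 calls over 70 instead of 90 contrasts, and 16 over 4 instead of 6 stages, against 44, 35 and 16 for the same contrasts and stages with all groups fitted. No share over all genes was worked out for that setting. Median-of-ratios scaling moved the median of all genes by -0.31 to 0.25 on the log2 scale and quantile scaling by -0.29 to 0.22. The difference of Krt84 between ventral and chin catagen was lost with TPM (adjusted p = 0.0801) and a pseudocount of 0.1 (0.113), and the fall of Krt82 in dorsal catagen with no filter (0.0701). The rise of Krt84 into dorsal refractory telogen was also lost with a pseudocount of 0.1 (0.0665). Median-of-ratios scaling lost the falls of Krt81 into chin late anagen (0.0738) and of Krt82 into ventral refractory telogen (0.0579). It also lost the Krt83 difference between dorsal and chin late anagen (0.0575). That of Krt81 between ventral and chin mid anagen was lost with quantile scaling (0.106) and in a fit of that stage alone (0.0964). Among the calls gained, Krt84 rose from late anagen to catagen in ventral skin with median-of-ratios (0.0499) and quantile scaling (0.043). In a fit of the dorsal libraries alone Krt84 and Krt86 rose from mid to late anagen (0.0216 and 0.0228). Differences that were not called are therefore not shown to be absent. Samples with the same replicate number did not deviate together (median correlation 0.003 over 327 pairs, highest 0.162). A batch correction can remove shared deviations, so these values cannot show whether the numbers pair the libraries. With the number as a block, 54 calls were made between consecutive stages, 46 between pairs of domains and 22 among domains, and the counts over stages, of the interaction and of the cartilage/muscle complex against dorsal skin were 5. No paired analysis was possible because the ear skin columns carry no number that matches their titles, for the 2 comparisons with ear skin. Groups of 2 or 3 libraries and an unstated batch correction limit all p-values, and the values of Krt84 in its 3 low skin groups rest on 9 to 22 fragments a group.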

Other observations

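Krt80, a type II epithelial keratin outside the hair keratin set, was at 0.24 and 0.86 FPKM in the 2 dorsal catagen libraries, against 51.1 to 54.1 in dorsal late anagen and 95.8 to 100.2 in ventral early anagen. Dorsal catagen was also the group in which Krt83 was lowest of the 18. The gene was singled out after its values were seen, and the pattern was not tested.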
